A study of Arabidopsis thaliana with 12 samples.

Results

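In Arabidopsis flowers that lack DCL2, DCL3 and DCL4, 160 transposons kept a larger share of their siRNAs than most others in a deposited table whose name carries the number 21. The members were chosen by the values of that table: at least 3 RPM, the reads scaled to an equal number of genome-matching reads per library, in both Col-0 flower libraries and a mean in dcl234 flowers of at least 0.25 times the mean in Col-0 flowers. Of 35092 transposons in the table, 13942 reached 3 RPM in both Col-0 flower libraries, and 160 of these (1.15%) met the ratio. The members comprised 154 annotated elements, with IDs of the form AT5TE11315, and 6 transposable element genes, with IDs of the form AT2G07683. In what follows, the levels of the members in the 21-nt-named table in dcl234 and Col-0 flowers are therefore a description of what was selected.

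The libraries came from flower buds of dcl234 triple mutants (dcl4-2t, dcl3-1 and dcl2-1, combined in the Col-0 background), from rosette and cauline leaves of Col-0, the wild-type accession, and from Col-0 flower buds. Each group had 2 biological replicates, from pooled tissue of plants between 4 and 6 weeks old under 16 h of light. Both sRNA-Seq and mRNA-Seq were run, giving 6 libraries of each. The 6 sRNA libraries held between 4062090 genome-matching reads (replicate 2 of Col-0 leaves) and 13755078 (replicate 2 of Col-0 flowers), and 3 RPM corresponded to between 12 and 41 reads. In whole buds and leaves, fewer cells of a type that makes an siRNA and less siRNA per cell cannot be told apart.

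As background, plant transposons are silenced by siRNAs cut from double-stranded RNA by Dicer-like (DCL) ribonucleases. DCL3 makes the 24-nt siRNAs that guide DNA methylation, from RNA that polymerase IV and RDR2 produce. DCL2 and DCL4 make siRNAs of 22 and 21 nt, and DCL1, the microRNA enzyme, is intact in dcl234. DCL1 can also cut hairpin RNAs from inverted repeats. There are 2 deposited siRNA tables, whose names carry the numbers 21 and 24. Which read lengths each one counts is not settled by the sources used here, so they are called the 21-nt-named and the 24-nt-named table. The 21-nt-named table summed to 904450 and 1016060 RPM in Col-0 flowers and to 81864 and 80126 RPM in dcl234 flowers. The 24-nt-named table summed to 253574 and 282056 RPM and to 220073 and 197695 RPM. The paper expects siRNAs of the longer class, which need DCL3, to be reduced in dcl234 flowers. The numbers in the names are therefore not to be taken as read lengths.

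The mutation and the tissues were visible in the mRNA-Seq of the same groups. DCL3 stood at 0.40 and 0.37 TPM in dcl234 flowers, against 3.85 and 4.30 TPM in Col-0 flowers. DCL2 stood at 1.04 and 1.60 TPM in dcl234 flowers, against 2.07 and 3.26 TPM in Col-0 flowers, and DCL4, whose transcript need not be lost in the mutant, at 3.12 and 2.87 TPM against 3.20 and 4.51 TPM. Of 23 genes of siRNA production and transposon silencing, 21 were tested, and with limma DCL3 alone was called in dcl234 flowers (log2 fold change -1.87, SE 0.35, adjusted p = 0.0132; 0.56% of 19809 genes were called lower and 1.39% higher). That call was lost with a pseudocount of 0.1 TPM or no filter, and with any 1 of the dcl234 or Col-0 flower libraries left out. In Col-0 leaves, 10 of the 21 were called lower and 0 higher (24.9% of all genes lower, 12.0% higher), among them AGO9, at 0.15 and 0 TPM in leaves against 28.7 and 40.4 TPM in flowers, and AGO4, the main effector of 24-nt siRNAs, at 4.85 and 2.89 TPM against 13.6 and 22.1 TPM. The bud identity gene AP1 was at 0 TPM in both leaf libraries.

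The genome sequence is given in RefSeq TAIR10.1 for the transposable element genes, and 4 stretches are shown because they bear on where the counted reads can come from. In AT2G07683, the capitals mark the mitochondrial gene of tRNA-Glu, which lies on the opposite strand. In AT4G08340, they mark bases identical to the start of the chloroplast gene of tRNA-Leu (trnL). In the sequences of AT5G28928 and AT3G43684, they mark bases of a 21-base word that occurs once in the 5 nuclear chromosomes.
AT2G07683, chr2:3303194-3303367, plus strand: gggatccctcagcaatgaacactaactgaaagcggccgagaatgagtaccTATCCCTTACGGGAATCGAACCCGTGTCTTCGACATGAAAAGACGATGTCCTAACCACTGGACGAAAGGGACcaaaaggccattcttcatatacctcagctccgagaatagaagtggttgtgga
AT4G08340, chr4:5268147-5268348, minus strand: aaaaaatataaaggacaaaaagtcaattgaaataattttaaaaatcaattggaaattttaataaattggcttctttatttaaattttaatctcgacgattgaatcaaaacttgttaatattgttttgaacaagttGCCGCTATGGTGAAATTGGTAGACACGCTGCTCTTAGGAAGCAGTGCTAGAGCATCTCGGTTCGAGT
AT5G28928, chr5:10962915-10963114, minus strand: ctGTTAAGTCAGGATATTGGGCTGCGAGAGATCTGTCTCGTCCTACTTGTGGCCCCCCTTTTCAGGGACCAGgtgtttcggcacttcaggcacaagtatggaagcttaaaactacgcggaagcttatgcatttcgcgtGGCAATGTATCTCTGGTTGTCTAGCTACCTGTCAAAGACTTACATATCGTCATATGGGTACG
AT3G43684, chr3:15586906-15587105, minus strand: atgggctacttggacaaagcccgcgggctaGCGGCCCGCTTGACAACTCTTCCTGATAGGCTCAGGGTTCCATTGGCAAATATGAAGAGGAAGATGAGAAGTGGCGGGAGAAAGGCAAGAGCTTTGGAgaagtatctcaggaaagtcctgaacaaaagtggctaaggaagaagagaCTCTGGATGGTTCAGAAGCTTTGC

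Most members kept siRNAs at a reduced level, and few kept the level of Col-0 flowers. The median member had, in the 21-nt-named table, 4.54 RPM in dcl234 flowers, 9.34 RPM in Col-0 leaves and 11.0 RPM in Col-0 flowers. The ratio of dcl234 to Col-0 flowers ran between 0.25 and 3.51 with a median of 0.338, against a median of 0.080 in the 13782 other transposons that reached 3 RPM. Levels of both dcl234 libraries lay below both Col-0 flower libraries in 153 members (99.9% of the 13942), above both in 5 (0.0359% of the 13942, the same 5 transposons) and overlapped in 2. Only 18 members had a ratio of 0.5 or more, and 59 lay between 0.25 and 0.30. With limma, 146 of the 160 members were called lower (99.6% of 15813 transposons tested) and 5 higher (0.158%), a count fixed largely by the rule. With TMM factors in edgeR, which assume that most transposons did not change, 150 members were called higher and 0 lower. Of all 15813 transposons tested, 529 were called higher and 3567 lower there. The members' count was again fixed largely by the rule.

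**Figure D1:**
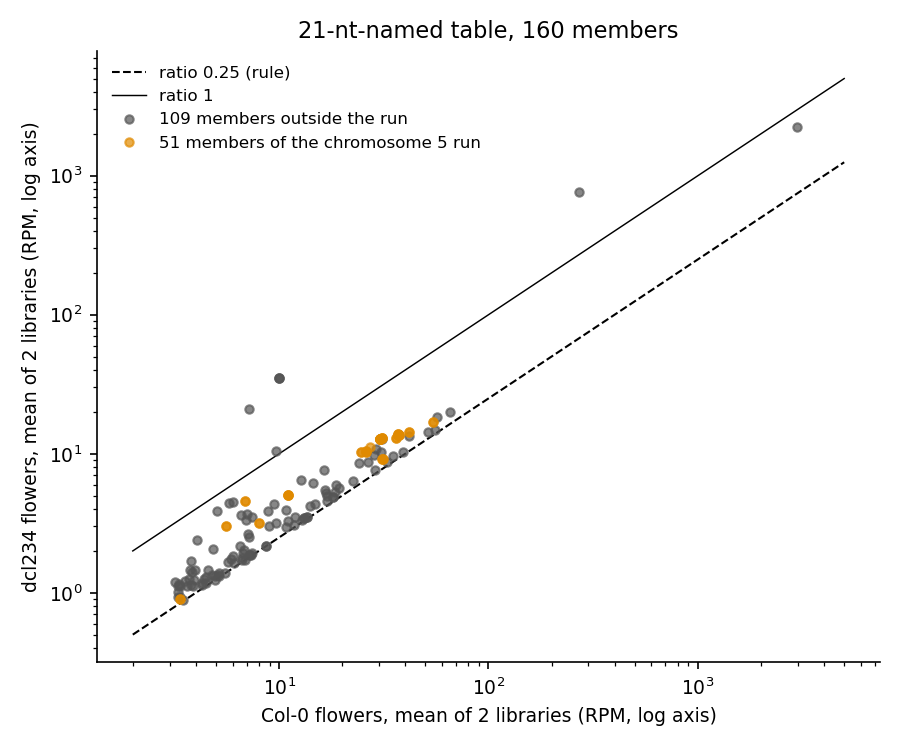
Each point is 1 of the 160 members, with its mean over the 2 dcl234 flower libraries (vertical, RPM, log axis) against its mean over the 2 Col-0 flower libraries (horizontal, RPM, log axis), in orange for the 51 members of a run on chromosome 5. The dashed line is the ratio of 0.25 that chose the members and the solid line a ratio of 1, above which 6 members lie.

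The threshold cut through a continuous range. Just inside it, AT3TE53710 had a ratio of 0.2502, and AT3G43684 and AT3TE63040, which had identical values, had 0.2507. Just outside, AT2TE49135, AT5TE50260 and AT2TE27335 had 0.2494, 0.2491 and 0.2491. The level threshold fell likewise between AT2G07693, with 3.02 RPM in the lower Col-0 flower library, and AT4TE10915 and AT4TE17795, with 3.10 RPM each, on one side and AT3TE55775, AT3TE48665 and AT3TE83890, with 2.98, 2.94 and 2.94 RPM, on the other. Members near it rested on few reads: the lowest member value in dcl234 flowers in the 21-nt-named table was 4 reads in replicate 1 and 5 reads in replicate 2.

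The members were not independent loci. The study's methods describe a division of read numbers by the number of genomic matches, but the tables held whole reads for at least 99.97% of the values above 0 in each library, which such a division would not leave, so a read was taken here to count in full at each transposon it matched. The 160 members had 127 distinct sets of values across the 12 columns of both tables. Another member had identical values for 58 of them, in 25 sets of at most 4 members.

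A set of 6 members had a mean in dcl234 flowers at or above that in Col-0 flowers. Divided by the miRNA total of each library, a scale taken up below, the ratio stayed above 1 in 5 of them (1.41 to 1.76) and was 0.536 in AT2G07683. AT2TE51180, AT3TE80920 and AT5TE16185, on 3 different chromosomes, had identical values in the 21-nt-named table: 34.3 and 36.1 RPM in dcl234 flowers, 3.64 and 5.17 RPM in Col-0 leaves, and 9.74 and 10.3 RPM in Col-0 flowers, a ratio of 3.51. With the same value in every library, they cannot be counted as 3 separate sources. The 24-nt-named values of AT2TE51180 were 9.15 and 14.4 RPM in dcl234 flowers, 3.41 and 5.91 RPM in leaves and 3.32 and 5.16 RPM in Col-0 flowers. Both dcl234 libraries were above all 4 others in both tables, while leaves were below flowers in the first table and overlapped them in the second.

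AT5TE11315 was higher than in Col-0 flowers in both other groups and both tables. Its 21-nt-named values were 648 and 878 RPM in dcl234 flowers, 1291 and 1121 RPM in Col-0 leaves, and 240.3 and 299 RPM in Col-0 flowers. The ratio to Col-0 flowers was 2.83 for dcl234 flowers and 4.47 for leaves, the highest leaf ratio of any member. Its 24-nt-named values were 308 and 379 RPM in dcl234 flowers, 915 and 818 RPM in leaves, and 125 and 161 RPM in Col-0 flowers. No group overlapped another in either table.

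AT1TE93285 had 15.9 and 26.0 RPM in dcl234 flowers, 13.5 and 10.1 RPM in leaves, and 7.02 and 7.27 RPM in Col-0 flowers in the 21-nt-named table, a ratio of 2.93 for dcl234 flowers. Its values in the 24-nt-named table were 6.10 and 9.43 RPM in dcl234 flowers, 5.92 and 4.92 RPM in leaves, and 4.30 and 3.56 RPM in Col-0 flowers. Both dcl234 libraries were above the other 4 in both tables, but on the miRNA scale the 24-nt-named ratio of 1.97 became 0.978.

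AT3TE69475 was the most abundant member in all 6 libraries of the 21-nt-named table. It had, in that table, 2163 and 2288 RPM in dcl234 flowers, 2263 and 2063 RPM in leaves, and 3040.2 and 2904 RPM in Col-0 flowers, a dcl234 ratio of 0.749. Its 24-nt-named values were 721 and 778 RPM in dcl234 flowers, 566 and 616 RPM in leaves, and 649.8 and 559.9 RPM in Col-0 flowers. Together with AT5TE11315 it made up the 2 members at 100 RPM or more in Col-0 flowers, while 72 members lay below 10 RPM.

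**Figure D2:**
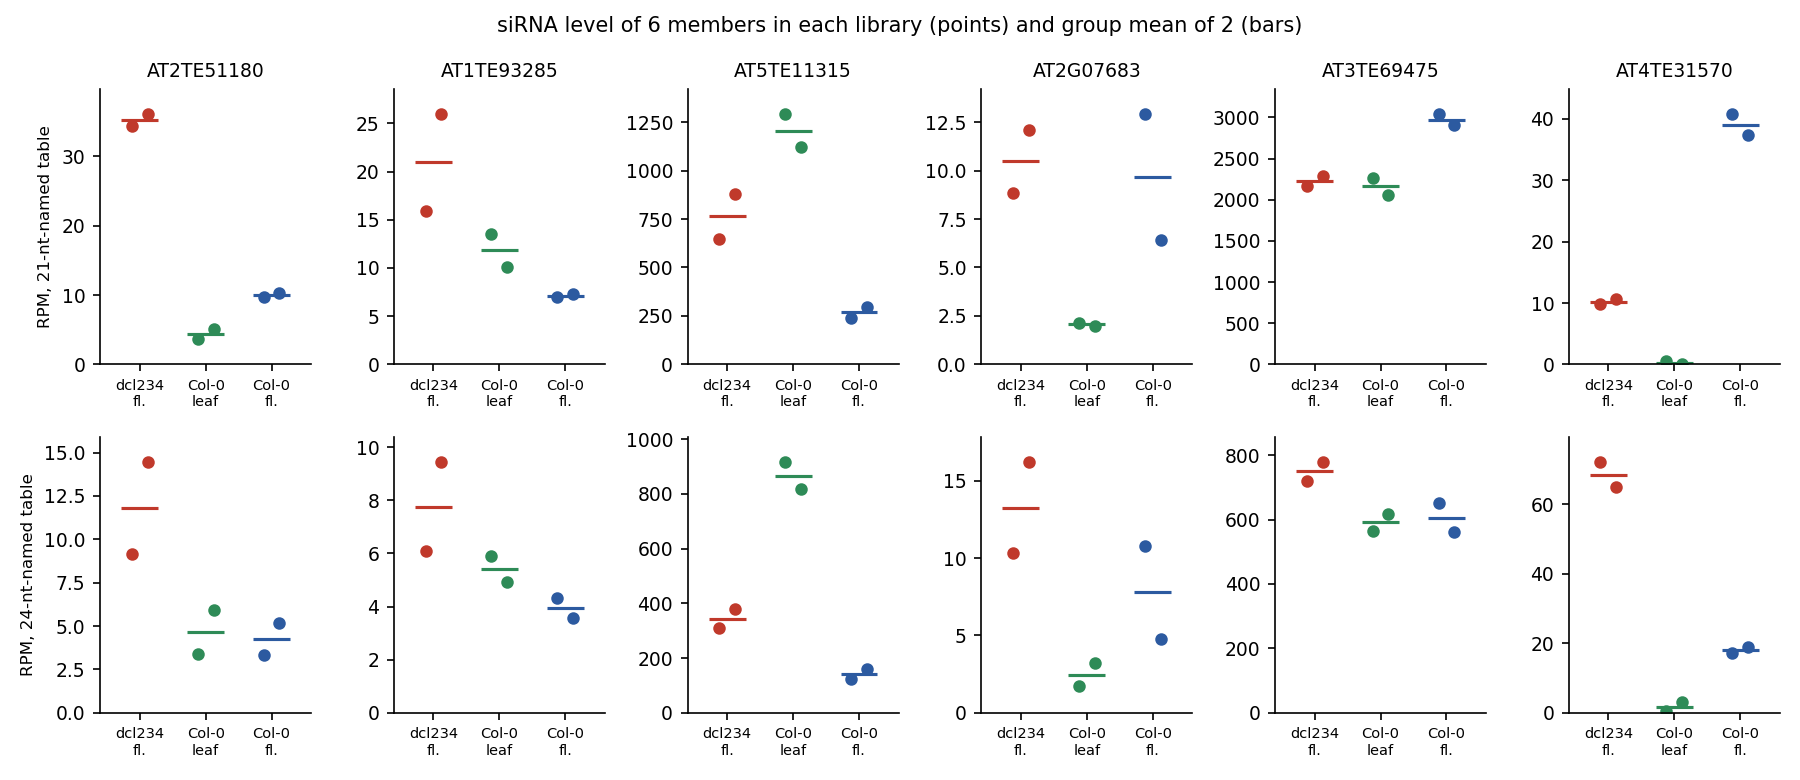
The level (RPM, linear axes from 0) of 6 members in dcl234 flowers, Col-0 leaves and Col-0 flowers, in the 21-nt-named table (top row) and the 24-nt-named table (bottom row), with a point per library and a bar at the mean of 2. AT2TE51180, AT1TE93285 and AT5TE11315 were above Col-0 flowers in dcl234 flowers in both rows, while AT4TE31570 was below in the top row and above in the bottom row.

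The members with the next highest levels in Col-0 flowers kept between 0.265 and 0.342 of them. AT2TE08205 had 19.3 and 17.6 RPM in dcl234 flowers, 62.8 and 57.6 RPM in leaves and 56.7 and 56.5 RPM in Col-0 flowers. AT4TE08110 had 14.9 and 14.7 RPM in dcl234 flowers, 7.63 and 5.91 RPM in leaves, and 55.1 and 56.2 RPM in Col-0 flowers. AT5TE34340 had 15.0 and 13.7 RPM in dcl234 flowers, 63.2 and 48.3 RPM in leaves, and 50.3 and 52.1 RPM in Col-0 flowers. Replicates of the mutant lay close together in these 3, and leaves ranged from far below flowers (AT4TE08110) to their level. AT3TE45970 was intermediate, with 14.0 and 13.0 RPM in dcl234 flowers, 31.4 and 30.3 RPM in leaves, and 41.7 and 41.9 RPM in Col-0 flowers.

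The 24-nt-named table went the other way for most members. The median member had 7.05 RPM in dcl234 flowers, 4.66 RPM in leaves and 4.24 RPM in Col-0 flowers there. The median ratio of dcl234 to Col-0 flowers was 1.89, against 0.722 in the other transposons that reached 3 RPM. It was 2.53 in the 51 members of a run on chromosome 5, taken up below, and 1.27 in the other 109. With members of identical values counted once, it was 1.67. Both dcl234 libraries were above both Col-0 flower libraries in 103 members (10.3% of the 13942), below both in 17 (59.2%) and overlapped in 40. Outside the run they were above both in 56 of 109, below both in 17 and overlapped in 36. The mean was above that of Col-0 flowers in 128 members (80% of the members, against 20.2% of the other transposons that reached 3 RPM), 122 of which were below it in the 21-nt-named table. Levels in this table exceeded those in the 21-nt-named table in 113 members in dcl234 flowers and in 9 in Col-0 flowers. This was general: the median ratio of the 24-nt-named to the 21-nt-named level in dcl234 flowers was 1.71 in the members and 2.28 in the other transposons. The rule asked for a high 21-nt-named level in dcl234 flowers, so a lower ratio in the members was favoured by the choice. In Col-0 flowers the medians were 0.385 in the members and 0.266 in the others.

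With limma, 79 of the 141 members tested in the 24-nt-named table were called higher in dcl234 flowers (3.35% of 12440 transposons tested) and 5 lower (28.6%). The rule used the same libraries and the same contrast, so these shares are a description of the members. They depended on the scale: each library divided by its miRNA total, 8 of 143 members tested were called higher and 32 lower. Of all 12977 transposons tested on that scale, 56 were called higher and 11200 lower. The reason for trying this scale was that miRNAs made up 92194 and 98955 RPM in dcl234 flowers, against 46689 and 48918 RPM in Col-0 flowers. The scale would hold only if the groups had equal miRNA totals. The paper reports a higher miRNA total in dcl234 flowers in absolute terms too, from RNA oligonucleotides added in known amounts. Those were not used here, so neither scale is absolute. Dividing by the miRNA total moved the median log2 fold change of all transposons tested from -0.38 to -1.23. The median of the members moved from 0.86 to -0.06. Such a division shifts all transposons of a library nearly alike. The distance between members and all transposons thus had to stay, and only the direction could change.

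**Figure D3:**
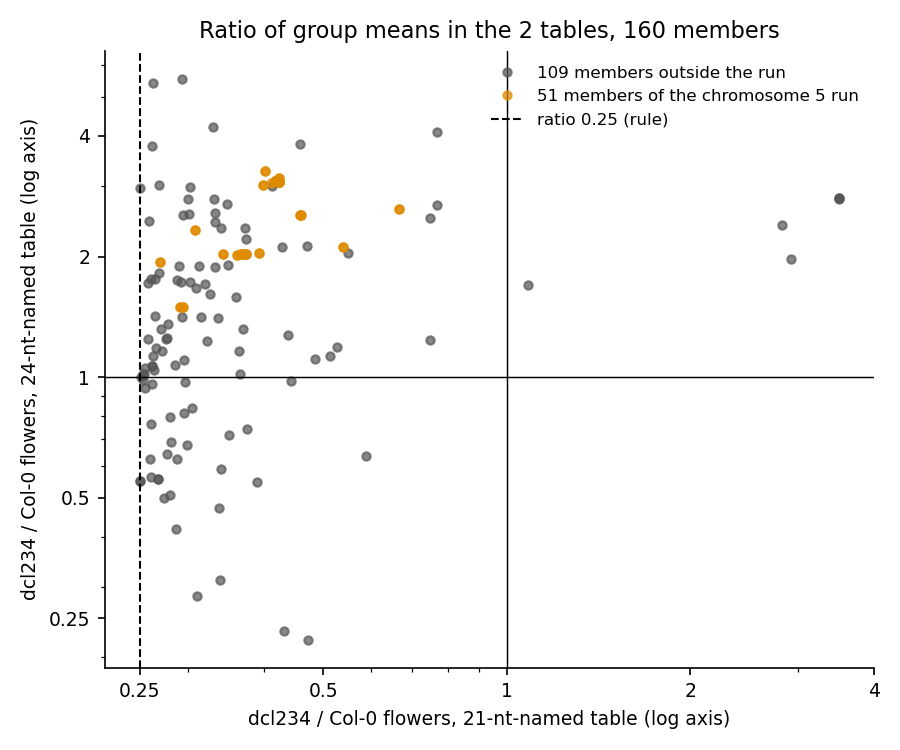
The ratio of dcl234 to Col-0 flowers in the 24-nt-named table (vertical, log axis) against that in the 21-nt-named table (horizontal, log axis), 1 point per member, in orange for the 51 members of the run on chromosome 5. The dashed line is the ratio of 0.25 that chose the members, and the upper left field holds the 122 members that were below Col-0 flowers in 1 table and above in the other.

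The tables went opposite ways for AT4TE31570. In the 21-nt-named table it had 9.84 and 10.6 RPM in dcl234 flowers, 0.569 and 0 RPM in leaves, and 40.8 and 37.4 RPM in Col-0 flowers. The other table gave 72.0 and 64.8 RPM in dcl234 flowers, 0.455 and 2.95 RPM in leaves, and 17.3 and 19.0 RPM in Col-0 flowers. The dcl234 ratio was 0.261 in the first table and 3.77 in the second, and leaves were lowest in both.

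The highest ratios in the 24-nt-named table belonged to members of low level. AT1TE58160 had 5.12 and 5.59 RPM in dcl234 flowers, 0.455 and 0.492 RPM in leaves, and 0.982 and 0.945 RPM in Col-0 flowers, a ratio of 5.56. AT1TE49155 had 10.1 and 12.0 RPM in dcl234 flowers, 0.228 and 0.739 RPM in leaves and 1.96 and 2.11 RPM in Col-0 flowers (5.43). Both were near 1 RPM in dcl234 flowers in the 21-nt-named table, and the other 3 of the 5 highest, AT5TE31895, AT2TE19300 and AT1TE42070, had ratios between 3.83 and 4.22.

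At the other end, 7 members had a ratio below 0.5 in the 24-nt-named table. AT4TE07995 had 0.984 and 1.28 RPM in dcl234 flowers, 4.32 and 5.17 RPM in leaves and 5.51 and 4.73 RPM in Col-0 flowers (0.221), and AT4TE23590 had 0.984 and 1.28 RPM in dcl234 flowers, 4.21 and 5.42 RPM in leaves and 4.98 and 4.73 RPM in Col-0 flowers (0.233). These 2 elements kept a larger share in the 21-nt-named table (0.472 and 0.431) than in the other. AT3TE05780 (0.285), AT1TE05000 (0.311) and AT4TE07990 (0.417) followed.

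Chromosome 5, as read from the IDs, held 76 of the 160 members (47.5%), against 20.7% of the 13942 transposons that reached 3 RPM. Chromosomes 1, 2, 3 and 4 held 20, 18, 26 and 20. Counting members with identical values once, chromosome 5 held 35.4% of 127. The excess lay in 1 run of neighbouring IDs, AT5TE45255 to AT5TE45825, which was picked out after the values were seen: outside it, chromosome 5 held 25 of 109 members (22.9%).

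**Figure D4:**
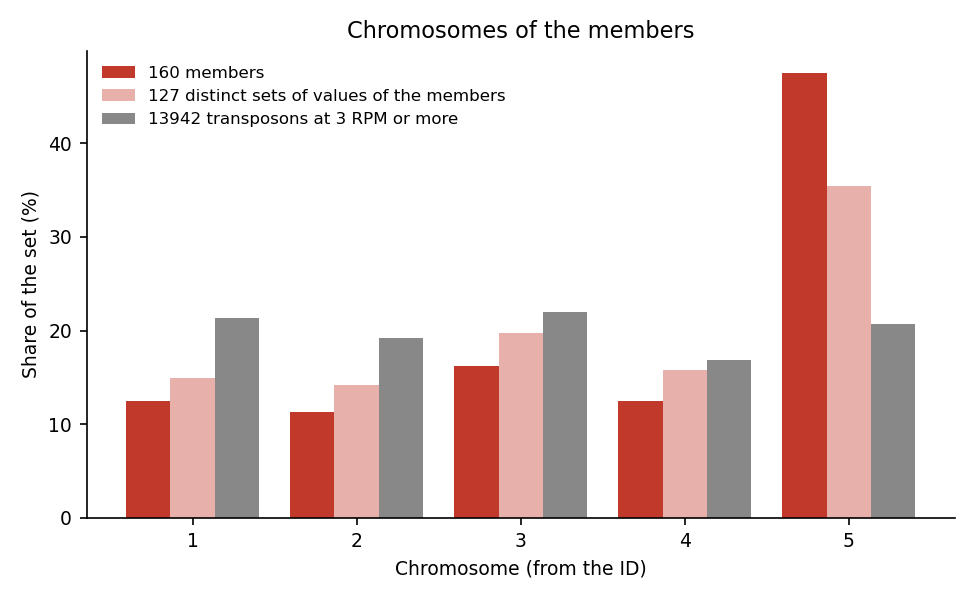
The share of each set (vertical, %, from 0) by chromosome (horizontal), for the 160 members, the 127 distinct sets of values among them, and the 13942 transposons at 3 RPM or more in both Col-0 flower libraries. Chromosome 5 holds 47.5% of the members and 20.7% of the 13942 transposons.

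The run held 51 members among 112 IDs. Of the other IDs, 20 were under 3 RPM in a Col-0 flower library and 41 reached it but not the ratio (median 0.136, highest 0.248). Coordinates of the elements were not used here, but element IDs followed the chromosome: 68 elements had values identical to those of 1 transposable element gene of the same chromosome, and 0 of these pairs were out of order. By this order the run lay between AT5G29574 and AT5G35334, that is, between positions 11218048 and 13538984 of chromosome 5 in TAIR10.1. The 51 members had 22 distinct sets of values, and 50 of them shared theirs with another. Of the 40 pairs of run members with identical values, 22 were 320 or 330 apart in ID number (AT5TE45270 and AT5TE45590, AT5TE45495 and AT5TE45825). The rest lay between 10 and 380 apart, among them 8 pairs at 50 and 4 at 380. Whether the run holds a repeated stretch of sequence was not tested.

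The run differed between replicates, in dcl234 flowers and in leaves. In the 21-nt-named table, the 51 members had medians of 6.69 and 19.0 RPM in replicates 1 and 2 of dcl234 flowers, 22.3 and 45.1 RPM in leaves, and 28.4 and 32.3 RPM in Col-0 flowers. The 24-nt-named medians were 30.1 and 64.8 RPM in dcl234 flowers, 22.8 and 26.1 RPM in leaves, and 13.1 and 18.1 RPM in Col-0 flowers. Replicate 2 of dcl234 flowers was above replicate 1 in 51 of 51 members in the first table and in 49 in the second. Outside the run, replicate 2 was above replicate 1 in 55 of 109 members in the 21-nt-named table. Replicate 2 of leaves was also above replicate 1 in 51 of 51 run members in that table, with a median ratio of 1.67, against 0.893 in the other transposons that reached 3 RPM.

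The place of the run among the members rested on that library. With replicate 2 of dcl234 flowers left out, 10 of the 51 still met the ratio, and with replicate 1 left out, 51 did. Over all members, 91 of 160 met it without replicate 2 and 141 without replicate 1. Both dcl234 libraries of the 24-nt-named table were nonetheless above both Col-0 flower libraries in 47 of the 51, and below both in 0. Why replicate 2 was higher here was not tested.

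AT5TE45495 and AT5TE45825, the run members with the highest level in Col-0 flowers, had 10.2 and 23.4 RPM in dcl234 flowers, 45.4 and 71.1 RPM in leaves, and 52.3 and 56.9 RPM in Col-0 flowers in the 21-nt-named table. In the other table they had 37.0 and 74.3 RPM in dcl234 flowers, 29.9 and 35.0 RPM in leaves, and 20.9 and 26.9 RPM in Col-0 flowers. Both dcl234 libraries were thus below flowers in 1 table and above them in the other. AT5TE45475 had 8.56 and 20.0 RPM in dcl234 flowers, 36.9 and 60.6 RPM in leaves, and 39.1 and 44.3 RPM in Col-0 flowers.

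**Figure D5:**
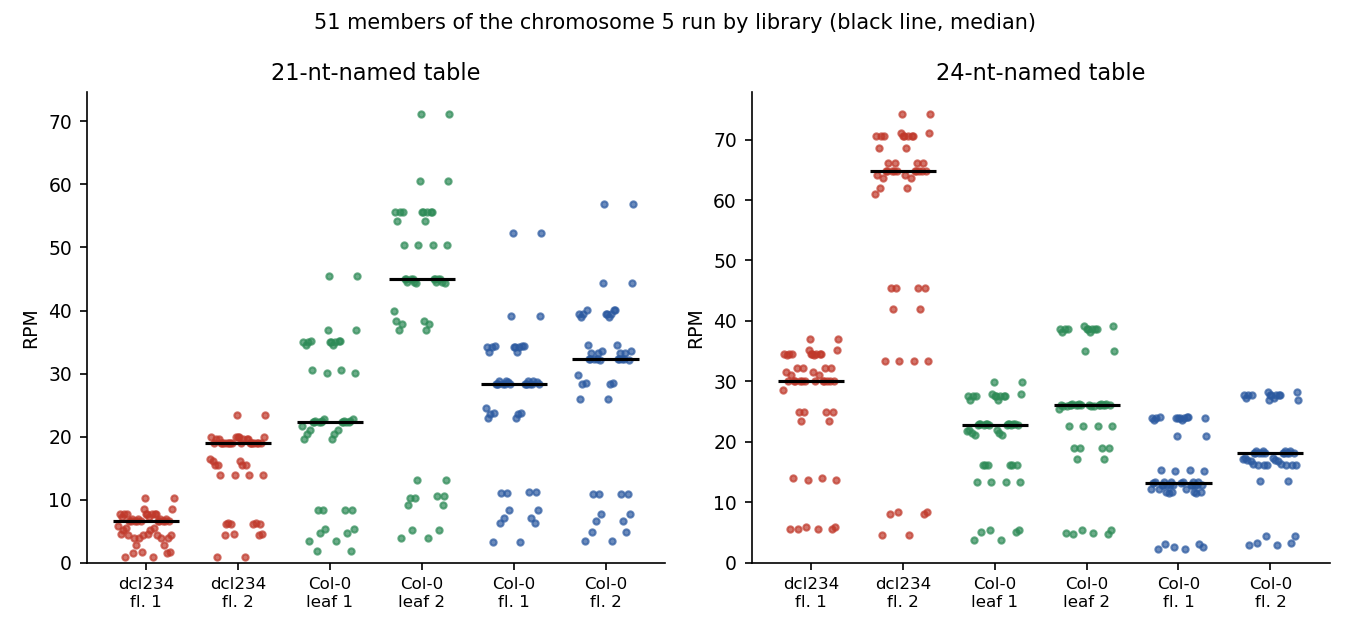
Levels (RPM, linear axes from 0) of the 51 members of the chromosome 5 run in each of the 6 libraries, in the 21-nt-named table (left) and the 24-nt-named table (right), with a point per member and a black line at the median. Replicate 2 of dcl234 flowers stands above replicate 1 in both panels, with medians of 19.0 and 6.69 RPM on the left and 64.8 and 30.1 RPM on the right.

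Some members outside the run had the same form. AT5TE40485, also on chromosome 5, had 14.4 and 25.3 RPM in dcl234 flowers, 50.0 and 77.8 RPM in leaves, and 60.4 and 71.2 RPM in Col-0 flowers in the 21-nt-named table. In the other table it had 35.3 and 69.4 RPM in dcl234 flowers, 24.7 and 30.3 RPM in leaves, and 17.1 and 23.9 RPM in Col-0 flowers. AT5TE41000 and AT5TE42950 kept ratios of 0.767 and 0.748. The 24-nt-named values of AT5TE41000 were 22.4 and 40.5 RPM in dcl234 flowers, 17.1 and 17.7 RPM in leaves, and 10.3 and 13.1 RPM in Col-0 flowers. Replicate 2 of dcl234 flowers was the higher one in each of these values. Between the same flanking genes lay 7 member elements outside the run, and the member gene AT5G31668. In the gene, replicate 2 of dcl234 flowers was the lower one in the 21-nt-named table, and the 24-nt-named ratio was 1.11. Among the 7 elements, replicate 2 was higher in 5 in the 21-nt-named table, and the 24-nt-named ratio was above 1 in 5. AT5TE43565 and AT5TE47275 had neither, with 24-nt-named ratios of 0.766 and 0.962. Positions of elements within this interval were not known, so a link between position and form was not tested. On other chromosomes, AT1TE54190 had 6.69 and 19.0 RPM in dcl234 flowers with a 24-nt-named ratio of 2.99, and AT3TE56410 had 3.84 and 13.7 RPM with a ratio of 2.78. The dcl234 values of AT1TE54190 equalled the medians of the run. Whether it counted the same reads was not tested. In all, 15 members outside the run had at least 2 times as much in replicate 2 as in replicate 1 of dcl234 flowers in the 21-nt-named table, 12 of them not on chromosome 5. By contrast, AT2TE19300, with a ratio of 0.769 on chromosome 2, had 4.43 and 3.38 RPM in dcl234 flowers, 4.32 and 7.14 RPM in leaves, and 4.91 and 5.23 RPM in Col-0 flowers, with replicate 2 the lower one.

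Per genome-matching read, the median member held siRNAs in leaves at about the level of flowers. In the 21-nt-named table, the median ratio of Col-0 leaves to Col-0 flowers was 0.938 in the members, against 0.405 in the other transposons that reached 3 RPM. It was 1.02, against 0.395, in the 24-nt-named table. With members of identical values counted once, the medians of the members were 0.800 and 0.877. The leaf libraries played no part in the rule but the Col-0 flower libraries did, so no test was made of this difference. On the miRNA scale the median log2 fold change of the tested members was -0.80 and -0.47 in the 2 tables, against -1.66 and -1.50 for all transposons tested, and with TMM factors it was 0.88 and 1.33, against -0.10 and -0.05. The paper reports a higher miRNA total in leaves than in flowers in RPM, but a non-significantly lower one by its added oligonucleotides. Those were not used here, so whether leaves equal flowers in absolute terms was not tested. With limma, 6 of the 160 members were called higher in leaves (0.923% of 15813 tested) and 45 lower (71.7%) in the first table, and 8 of 141 higher (0.82% of 12440) and 23 lower (67.4%) in the second. Leaves and Col-0 flowers came from the same plants. With the replicate number as a block over all 6 libraries, the 8 became 27, of which 21 were in the run. Without a block, in a fit of only the 4 leaf and Col-0 flower libraries, the number was 26, with 21 in the run. The rise can therefore not be assigned to the shared plants.

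In leaves the run lay above the rest, by an amount that depended on the library in the 21-nt-named table. Run members had a median leaf ratio of 1.11 in the 21-nt-named table, with the leaf and flower libraries overlapping in 43 of the 51, and 1.52 in the 24-nt-named table, with both leaf libraries above both flower libraries in 35. Members outside the run had median leaf ratios of 0.729 and 0.706. With replicate 1 of leaves alone, the 21-nt-named medians were 0.788 in the run and 0.672 outside it, and with replicate 2 alone 1.49 and 0.767, while the 24-nt-named medians were 1.41 and 0.720 with replicate 1 and 1.497 and 0.696 with replicate 2. Over all 160 members, both leaf libraries were below both flower libraries in 74 in the first table (86.3% of the 13942) and in 50 in the second (78.1%), and above both in 16 (2.83%) and 47 (3.58%). Of the 109 outside the run, 68 and 50 were below. The range was wide: 4 members had a leaf mean under 0.1 of that in flowers in the 21-nt-named table, and a leaf library was at 0 in 3 members.

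The highest leaf ratios after AT5TE11315 were modest. AT3TE48405 had 10.2 and 17.7 RPM in leaves against 7.55 and 6.98 RPM in Col-0 flowers, with 1.97 and 1.75 RPM in dcl234 flowers. AT4TE31855 had 13.5 and 16.7 RPM in leaves against 9.29 and 8.36 RPM in Col-0 flowers, and AT1TE41140 had 9.45 and 13.0 RPM in leaves against 8.46 and 5.53 RPM. In each, both leaf libraries were above both flower libraries, with ratios of 1.92, 1.72 and 1.61, which became 1.21, 1.07 and 1.00 on the miRNA scale.

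The 6 transposable element genes are the members with known positions. AT2G07683 (chr2:3301883-3303367, plus strand) was the only one whose dcl234 mean was not below that of Col-0 flowers. It had 8.85 and 12.1 RPM in dcl234 flowers, 2.16 and 1.97 RPM in leaves, and 12.9 and 6.40 RPM in Col-0 flowers in the 21-nt-named table, a ratio of 1.09 (0.536 on the miRNA scale). In the other table it had 10.3 and 16.2 RPM in dcl234 flowers, 1.71 and 3.20 RPM in leaves, and 10.8 and 4.80 RPM in Col-0 flowers. The Col-0 flower libraries differed by more than the means of dcl234 and Col-0 flowers in the 21-nt-named table, where these groups overlapped, and leaves were below both.

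AT2G07683 and AT2G07693 (chr2:3341392-3342812, plus strand) lie where chromosome 2 carries a copy of the mitochondrial genome. Of the 21-base words of AT2G07683, 97.1% also occurred in the mitochondrial genome, and of AT2G07693, 100%. The longest unbroken identical stretches were 917 and 1421 bases, and that of AT2G07693 was the whole gene. Reads with these bases cannot be assigned to the nuclear or the mitochondrial copy by sequence. Of 3091 transposable element genes that reached 3 RPM, 7 (0.226%) shared at least 50% of their words with the mitochondrial genome, and the 5 that were not members had ratios between 0.0712 and 0.107. AT2G07686, a neighbour, had 3.05 and 3.49 RPM in dcl234 flowers, 2.16 and 1.97 RPM in leaves, and 40.1 and 47.2 RPM in Col-0 flowers. Genes with this much mitochondrial sequence were thus 2 of the 6 member genes (33.3%) and 5 genes that were not members. The part of mitochondrial reads in these values was not tested.

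AT2G07693 was close to the level threshold, with 1.57 and 0.815 RPM in dcl234 flowers, 2.16 and 0.246 RPM in leaves, and 3.02 and 3.34 RPM in Col-0 flowers. Both genes were above 1 TPM on average over the mRNA libraries. AT2G07683 had 1.63 and 1.85 TPM in dcl234 flowers, 0.68 and 1.07 TPM in leaves, and 1.57 and 1.79 TPM in Col-0 flowers. AT2G07693 had 2.07 and 1.48 TPM in dcl234 flowers, 0.44 and 0.91 TPM in leaves, and 0.77 and 0.95 TPM in Col-0 flowers. Neither was called by limma in dcl234 flowers (log2 fold changes 0.03 ± 0.34 and 0.57 ± 0.36, SE, adjusted p = 0.944 and 0.287) or in leaves (adjusted p = 0.243 and 0.752). The other 4 genes were listed at 0 TPM in all 6 libraries.

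AT4G08340 (chr4:5264215-5271148, minus strand) stood apart in leaves. In the 24-nt-named table it had 13.9 and 28.3 RPM in dcl234 flowers, 70.4 and 67.9 RPM in leaves, and 8.46 and 9.45 RPM in Col-0 flowers. The leaf ratio of 7.73 was the highest of any member in that table, while in the 21-nt-named table leaves were below flowers: 8.56 and 12.9 RPM in dcl234 flowers, 16.3 and 25.8 RPM in leaves, and 31.6 and 26.2 RPM in Col-0 flowers. Of its 21-base words, 5.64% also occurred in the chloroplast genome. They lie in 5 stretches within chr4:5267858-5268348, the longest of 202 bases, and match the tRNA-Leu gene trnL, 67 of whose 80 bases are the capitals of the sequence above, and the neighbouring cytochrome c biogenesis gene ccsA. The other 5 transposable element genes with at least 1% chloroplast words were not members. None of them was higher in leaves than in flowers in the 24-nt-named table, AT2G07080, with 14.8% such words, having 3.76 and 2.95 RPM in leaves and 6.19 and 3.49 RPM in Col-0 flowers. Whether chloroplast reads made up the leaf value of AT4G08340 was not tested.

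AT5G28928 (chr5:10962068-10963114, minus strand) had the same values as the element AT5TE39865. They had 5.21 and 4.54 RPM in dcl234 flowers, 12.2 and 22.4 RPM in leaves, and 17.3 and 19.0 RPM in Col-0 flowers in the 21-nt-named table. AT3G43684 (chr3:15585532-15587105, minus strand), identical to AT3TE63040, had 1.77 and 2.56 RPM in dcl234 flowers, 3.07 and 1.72 RPM in leaves, and 9.14 and 8.14 RPM in Col-0 flowers. AT5G31668 (chr5:11653108-11654329, plus strand) had 3.44 and 3.26 RPM in dcl234 flowers, 2.62 and 1.23 RPM in leaves, and 6.19 and 7.63 RPM in Col-0 flowers. All 3 were lower in dcl234 flowers than in Col-0 flowers in both libraries of that table. In the 24-nt-named table, the dcl234 ratio was 0.558 for AT5G28928, 0.551 for AT3G43684 and 1.11 for AT5G31668.

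The sequences of the 6 genes held no inverted repeat of 21 bases: 0% of the words of each had their reverse complement in the same gene. The median of the 3091 genes was also 0%, with a highest value of 7.80%. The median word of each gene occurred once in the nuclear chromosomes, against a median of 2 times over the 3091 genes. Between 55.9% (AT5G31668) and 98.0% (AT4G08340) of the words occurred once, against a median of 49.7% over the 3091 genes (range 0% to 100%). In the sequences printed for AT5G28928 and AT3G43684, 132 and 122 of 200 bases lay in such a word.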

How the data were processed

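sRNA-Seq and mRNA-Seq were analysed for 6 libraries each. The deposited siRNA tables hold RPM, which the authors made by aligning reads with Bowtie to TAIR10 with 0 mismatches and up to 100 alignments and dividing by genome-matching reads. Their methods also state that read numbers were divided by the number of matches, which whole reads in the tables do not show, so each read was taken to count in full at every transposon it matched. The mRNA table holds TPM per gene, estimated by the authors with RSEM on Araport11. RPM were turned back into whole reads for between 99.97% and 100% of the values (within 0.01 of a read). With these reads, edgeR's quasi-likelihood test called 25 and 15753 transposons higher and lower in dcl234 flowers and 130 and 11152 in leaves in the 21-nt-named table, and 496 and 4117, and 120 and 8300, in the 24-nt-named table.

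A transposon missing from a table was set to 0. limma 3.58.1 (edgeR 4.0.16, R 4.3.3, Python 3.11.15) was fitted on log2(RPM + 1) or log2(TPM + 1) over all 6 libraries for features with a mean of at least 1, so fold changes of low features are understated. Calls had a Benjamini-Hochberg adjusted p under 0.05, two-sided. Scripts were tested on simulated data. Col-0 leaves came from the same plants as the Col-0 flowers, but deviations of same-numbered libraries correlated by between -0.0776 and 0.0795, so numbers were not used as pairs. With 2 replicates per group, p-values measure the spread of these libraries. Intervals were not given, and reads cover counting error only.

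Members and lists were chosen with earlier results of these data known. Members named were the 10 with the highest Col-0 flower level and the 10 with the highest dcl234 ratio in the 21-nt-named table, the 5 with the highest dcl234 level and the 5 highest and 5 lowest dcl234 ratios in the 24-nt-named table, the 5 with the highest leaf level and leaf ratio in the 21-nt-named table, the 3 on each side of each threshold, and the 6 transposable element genes, of which those under 1 TPM, and AT2G07686, AT2G07080, AT5TE43565, AT5TE47275, AT1TE54190 and AT3TE56410, were added after their values were seen. Sequences are from RefSeq TAIR10.1, searched in words of 21 bases. Alternatives were other levels and ratios of the rule, pseudocounts, filters, scales, edgeR, the replicate block and leaving out libraries.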

Additional observations from a re-analysis of the deposited data

How the results depend on the processing

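The number of transposons that met the rule was 160. It was 355 at a level of 1 RPM, 83 at 10 RPM, 18 at a ratio of 0.5, 350 at a ratio of 0.2 and 23 with each library divided by its miRNA total, and between 170 and 245 with 1 library left out. In the 21-nt-named table, TMM factors gave 150 members higher and 0 lower in dcl234 flowers, against 529 and 3567 of 15813 transposons tested. For leaves against flowers there, members called higher numbered 3 with a pseudocount of 0.1 RPM, 1 on the miRNA scale, 105 with TMM factors and between 1 and 13 with 1 library left out, and members called lower 28 with at least 1 RPM in each library, 87 on the miRNA scale and 9 with TMM factors. In the 24-nt-named table, members called higher in dcl234 flowers numbered 51 with a pseudocount of 0.1 RPM, 50 with no filter, 8 on the miRNA scale, and between 22 and 71 with 1 library left out. The following were chosen after seeing the data: the number was 51 with members of identical values counted once, and 32 without the chromosome 5 run. Members called lower numbered 2 with at least 1 RPM in each library, 8 in a fit of the 4 libraries of the contrast, 32 on the miRNA scale, 3 with TMM factors and between 2 and 4 with 1 library left out. For leaves in that table, members called higher numbered 3 with a pseudocount of 0.1 RPM, 5 with at least 1 RPM in each library, 2 with no filter, 26 with only 4 libraries, 2 on the miRNA scale, 25 with edgeR, 95 with TMM factors, 3 without the run and between 2 and 39 with 1 library left out, and members called lower 5 with at least 1 RPM in each library, 61 on the miRNA scale, 5 with TMM factors and between 14 and 29 with 1 library left out. With the replicate number as a block, 27 members were called higher in leaves in the 24-nt-named table in place of 8; the block gave 5 higher and 148 lower (21-nt-named) and 79 and 6 (24-nt-named) in dcl234 flowers, and 5 and 43, and 25 lower, in leaves. The pathway genes called lower in dcl234 flowers numbered 0 with a pseudocount of 0.1 TPM, with no filter and in each fit with 1 library left out (0 to 0), and in leaves between 6 and 13. The cause of these changes was not tested. Over these counts, 97 alternatives stayed within 1.5 times and 57 did not, and of the ratios of named members 610 stayed within 1 SD and 110 did not. Depth limits members near 3 RPM, which is 12 reads in replicate 2 of leaves.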
